A study of Homo sapiens with 18 samples.

Results

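HES1 and 9 other genes of the Notch pathway were followed through 18 RNA sequencing libraries of 3 human cancer cell lines. The 10 genes, of 27166 in the deposited table, were found by name: the ligands JAG1 and JAG2, the receptors NOTCH1, NOTCH2 and NOTCH3, the DNA-binding factor RBPJ, and the target genes HES1, HES4, HEY1 and NRARP. HES1 was chosen by its values in these libraries, higher in NCIH838 and slightly lower in DLD1 after KDSR was targeted. Its change in those lines, and the difference between lines in that change, are therefore given as a description with no test. The other 9 genes were chosen by name as its pathway, with results of these data already known.

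The labels give the liver as the origin of HUH7 (hepatocellular carcinoma), the colon as that of DLD1 and the lung as that of NCIH838. In all of them the cells had been infected with lentivirus carrying lentiCRISPR v2, which delivers Cas9 and a guide, and all had been under puromycin for 5 days. CTRL cells carried a non-targeting guide and KDSR KO cells a single guide against KDSR, so the knockout and the effects of that guide cannot be told apart. KDSR encodes 3-ketodihydrosphingosine reductase, an early enzyme of sphingolipid synthesis in the endoplasmic reticulum. RNA was taken 8 days after infection from HUH7 and DLD1 and 10 days after infection from NCIH838, with 3 biological replicates in each of 6 groups. Nothing in the sources used here gives the share of edited cells or says whether cultures were cloned.

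Notch signalling passes between touching cells. A Jagged or Delta ligand on a neighbour binds a Notch receptor, ADAM proteases and then gamma-secretase cut the receptor, and its freed intracellular domain joins RBPJ and Mastermind-like coactivators on DNA. HES and HEY genes, which encode transcriptional repressors of the basic helix-loop-helix class, and NRARP, which encodes a small ankyrin repeat protein that limits the signal, are switched on. In the gut the pathway keeps progenitors from a secretory fate through HES1, in the liver it acts in bile duct formation, and in the airway it balances secretory and ciliated cells. HES1 is also a target of other signals and represses its own gene.

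In CTRL cells HES1 had its highest level in DLD1. TPM scales reads by gene length and by the library's total, so that levels of different genes can be set side by side. HES1 stood at 192, 192 and 198 TPM in the 3 DLD1 CTRL libraries, at 118, 118 and 111 TPM in those of HUH7, and at 14.4, 13.1 and 13.1 TPM in those of NCIH838. The 3 lines did not overlap. The DLD1 mean lay above 95.5% of 19869 fitted genes, the HUH7 mean above 91.8% and the NCIH838 mean above 57.8%. Fitted genes averaged 1 TPM or more in at least 1 line, and only 16347 did so in NCIH838, so genes scarcely expressed there count in its share.

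After targeting of KDSR, HES1 in NCIH838 was 36.2, 38.6 and 34.9 TPM, each library above every CTRL library of the line. The mean went from 13.5 ± 0.779 TPM in CTRL to 36.6 ± 1.87 TPM in KDSR KO (SD, n = 3), which is 2.70-fold and 1.37 on the log2(TPM + 1) scale. In DLD1 the KDSR KO libraries had 158, 154 and 153 TPM, each below every CTRL library. The mean went from 194 ± 3.64 to 155 ± 2.81 TPM (SD, n = 3), a change of -19.99% or -0.32 on the log2(TPM + 1) scale. NCIH838 thus stayed the line with the least HES1 in both conditions, and DLD1 the line with the most.

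HES1 in HUH7, which played no part in its choice, had 109, 111 and 111 TPM in KDSR KO, and its groups overlapped. The log2 difference was -0.06 ± 0.05 (SE), with an interval at 95% confidence from -0.16 to 0.04 and an adjusted p of 0.556 in limma, a linear model fitted over all genes with Benjamini-Hochberg adjustment. No gene of the 16104 tested in HUH7 passed an adjusted p of 0.05, so the share called was 0.0% higher and 0.0% lower. At an unadjusted p under 0.05 there were 1806, and limma voom on recovered reads called 0.

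**Figure D1:**
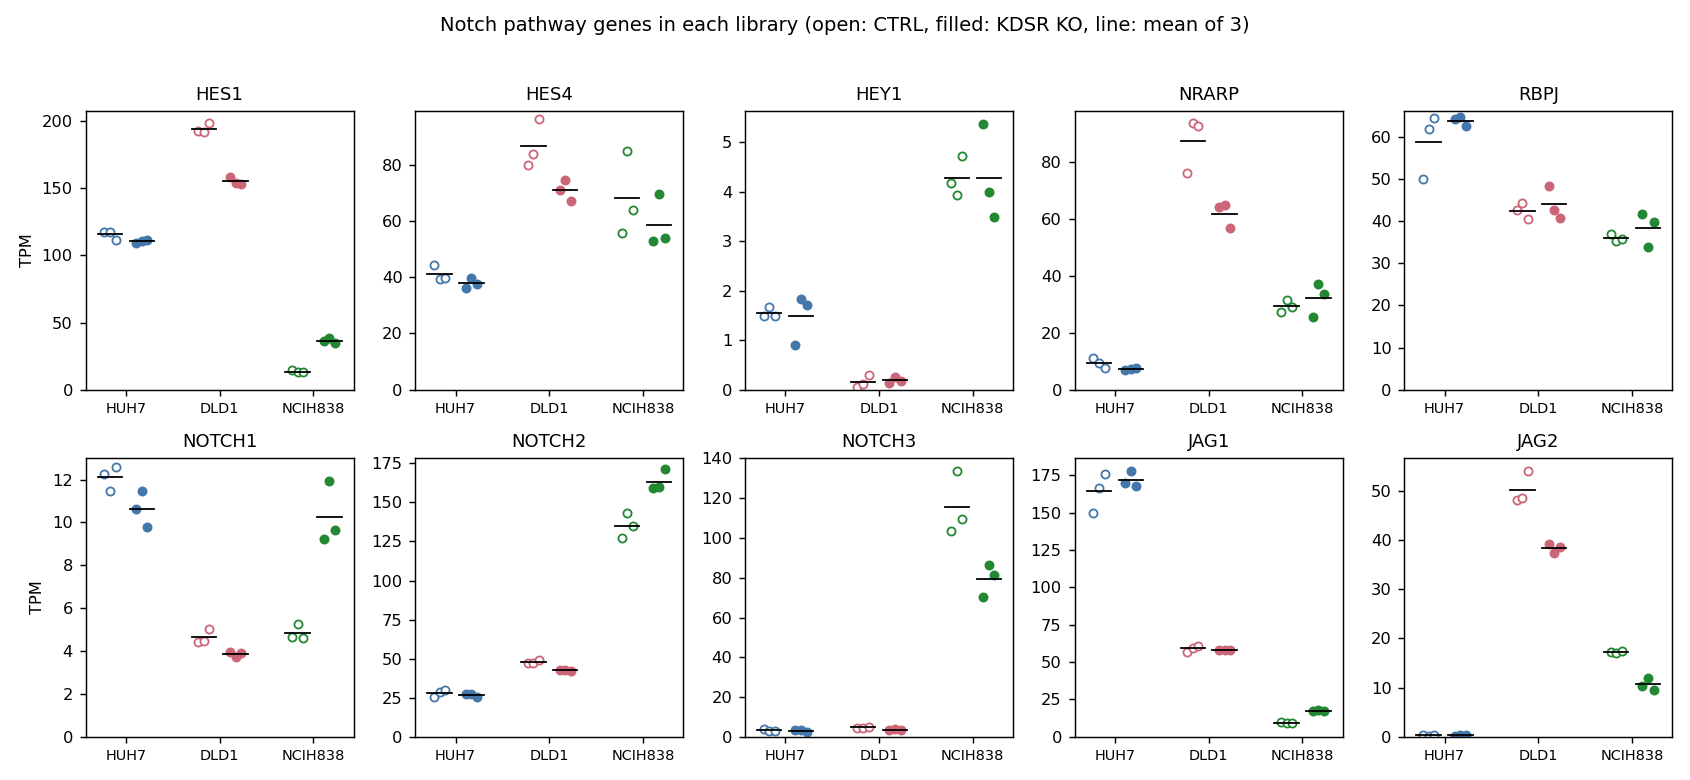
TPM of the 10 genes in each library (vertical axis, from 0, with its own range in each panel) by cell line (horizontal axis); open circles are CTRL, filled circles KDSR KO and black lines the mean of 3. In NCIH838 the KDSR KO libraries of HES1, NOTCH1, NOTCH2 and JAG1 lie above all CTRL libraries, and those of NOTCH3 and JAG2 below.

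The stretch of DNA just before the HES1 start is shown because it is where RBPJ is known to bind the gene. The 150 bases before the RefSeq start of HES1 and of NRARP, which answers to the same complex, are from RefSeq (GRCh38.p14), at chr3:194135998-194136147 (plus strand) and chr9:137302272-137302421 (minus strand). For HES4, a relative of HES1, only the 30 bases around the motif are shown, at chr1:1000156-1000185 (minus strand). Each is written 5′ to 3′ on the gene's strand, and capitals mark TGGGAA, the core of the RBPJ motif, found on either strand.
HES1: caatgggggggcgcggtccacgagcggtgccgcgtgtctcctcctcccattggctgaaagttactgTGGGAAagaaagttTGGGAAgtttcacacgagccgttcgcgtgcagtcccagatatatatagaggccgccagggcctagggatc
HES4: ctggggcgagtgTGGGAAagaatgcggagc
NRARP: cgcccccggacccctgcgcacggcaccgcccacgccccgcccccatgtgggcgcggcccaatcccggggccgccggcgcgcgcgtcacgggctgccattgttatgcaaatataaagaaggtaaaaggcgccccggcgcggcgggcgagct

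In hg38 with GENCODE 29 the HES1 gene (ENSG00000114315.3) lies on chromosome 3 from 194136145 to 194138732, HES4 on chromosome 1 from 998962 to 1000172 and NRARP on chromosome 9 from 137300482 to 137302251. Distances are from the RefSeq starts. The GENCODE start of HES1 lies 3 bases upstream of the RefSeq start, that of HES4 75 bases upstream and that of NRARP 20 bases downstream. HES1 held the core 84 and 70 bases before its RefSeq start. HES4 held it 76 bases before its RefSeq start, where it spans the GENCODE start. HES1 and HES4 shared a run of 12 bases around it, tgTGGGAAagaa, and each held the longer form GTGGGAA, which contains the core. The 250 bases before NRARP held no match to either. Over 27305 promoters searched in the same 250 bases on both strands, 21.1% held TGGGAA, 2.92% held it at 2 or more places and 5.46% held GTGGGAA. HES1 also held 3 copies of CACNAG, the N box that HES proteins bind, 165, 132 and 58 bases before its start. At least 1 copy was held by 31.97% of promoters, and 2 or more copies by 6.28%. HES4 and NRARP held none, and none of the 3 held the E box CACGTG, which 6.49% of promoters held.

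Of the 10 genes 9 had promoter windows used here. Among the other 6, TGGGAA was found only for RBPJ, in 1 of its 5 alternative windows, at 115 bases (minus strand) and 72 bases (plus strand) before the start. The 3 receptors and both ligands held no TGGGAA, and NOTCH3 held a single CACNAG 211 bases before its start. A match of letters is a description and not a binding site.

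The libraries held 17039634 to 20385767 recovered reads each. KDSR itself was lower by 37.2% in HUH7 and by 35.2% in DLD1 (exact permutation test, two-sided, p = 0.1 in each, the smallest p that 3 against 3 allows), and limma called it lower in DLD1 (adjusted p 0.000775) but not in HUH7 (adjusted p 0.114). With median ratio scaling and quantile normalization it was called lower in HUH7 too (adjusted p 0.0364 and 0.0437). In NCIH838 it differed by -4.10% (exact permutation p = 0.7). A small edit need not lower a transcript, so this level alone does not check the KDSR KO label of that line. HUH7 expressed 10 of 10 hepatocyte markers at a mean of at least 1 TPM and DLD1 CTRL 9 of 10 colon epithelial markers. NCIH838 had only 1 of the 7 lung epithelial markers analysed here at that level, of 10 listed, with NKX2-1, SFTPB, SFTPC and NAPSA under 1 TPM, so its lung origin rests on the labels. Summed hepatocyte markers ran from 1.05 to 9.63 TPM in NCIH838 CTRL, with ALB and AFP among them, against 15750 to 17666 TPM in HUH7 CTRL. Mitochondrially encoded genes took 12.5% of TPM in HUH7 CTRL replicate 1 and 7.07% and 8.34% in replicates 2 and 3. In DLD1 they took 6.32% to 8.96% of TPM in CTRL against 8.35% to 9.59% in KDSR KO.

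Across the tests of KDSR KO against CTRL, 3 of the 9 members tested in NCIH838 were called higher and 2 lower, and in DLD1 0 of 8 were higher and 2 lower. The background in NCIH838 was 15.7% of genes higher and 26.8% lower, and in DLD1 5.16% higher and 12.1% lower. Because HES1 was chosen on these contrasts, nothing is read from the counts of members. The split between rises and falls over all genes depends on scaling. In DLD1 799 genes were called higher and 1875 lower, against 1147 and 1263 with median ratio scaling and 1245 and 985 with quantile normalization. In NCIH838 2560 were higher and 4385 lower, against 3303 and 3699 with quantile normalization. The median log2 change over all genes tested was 0.02 in HUH7, -0.07 in DLD1 and -0.09 in NCIH838. Less RNA per cell and fewer cells of a kind cannot be told apart in bulk libraries.

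**Figure D2:**
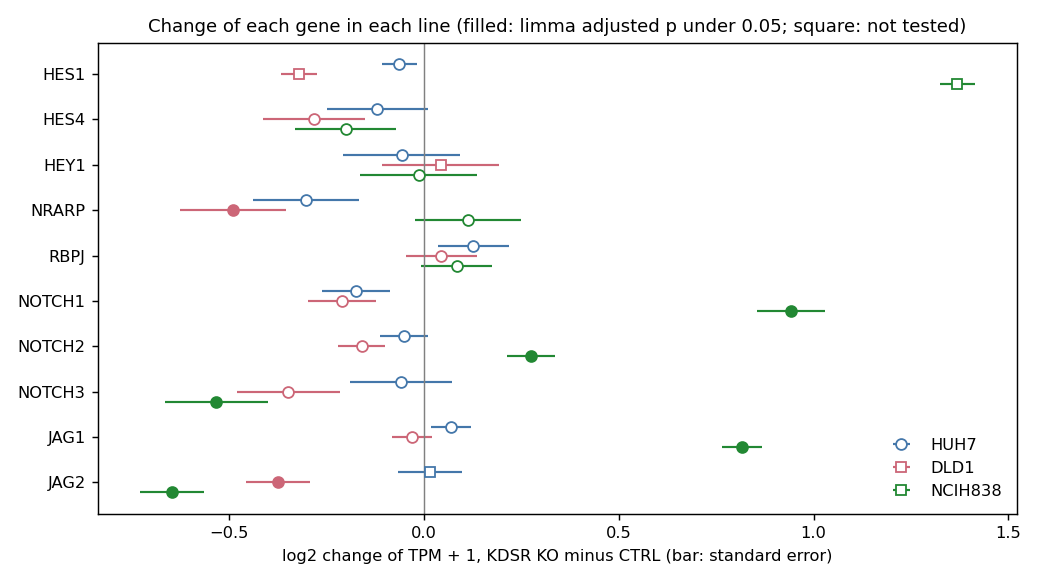
Log2 change of TPM + 1, KDSR KO minus CTRL (horizontal axis), for the 10 genes in the 3 lines; bars are standard errors, filled circles have a limma adjusted p under 0.05, open circles do not and squares were not tested. HES1, NOTCH1 and JAG1 lie furthest to the right in NCIH838, at 1.37, 0.94 and 0.82.

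In hg38 JAG1 lies on chromosome 20 from 10637684 to 10673999 and JAG2 on chromosome 14 from 105140981 to 105168824, both on the minus strand. JAG1 shares 79 exon bases with the antisense gene AL050403.2, at most 0.460 TPM here, and JAG2 shares 469 with AL512356.1, so reads in those bases are uncertain. The 2 ligands moved in opposite directions in NCIH838. JAG1 was 9.76, 9.40 and 9.26 TPM in CTRL against 17.3, 17.6 and 17.4 TPM in KDSR KO, with a wide gap between the groups. It rose 1.84-fold (log2 change 0.82 ± 0.05 SE, adjusted p 1.42e-08, limma). JAG2 was 17.1, 17.0 and 17.4 TPM in CTRL against 10.3, 12.04 and 9.60 TPM in KDSR KO. It fell by 37.97% (log2 change -0.65 ± 0.08 SE, adjusted p 1.86e-05), and again no library of one group reached the other. JAG2 was the more abundant of the pair in CTRL and JAG1 in KDSR KO. The ratio of JAG1 to JAG2 went from 0.552 ± 0.0187 to 1.65 ± 0.174 (SD, n = 3), while their sum was 26.6 ± 0.246 TPM in CTRL against 28.1 ± 1.42 TPM in KDSR KO.

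In DLD1 JAG2 fell and JAG1 was not called. JAG2 was 48.0, 48.4 and 53.9 TPM in CTRL against 39.2, 37.4 and 38.6 TPM in KDSR KO, groups that did not overlap. The decrease was 23.4% (log2 change -0.37 ± 0.08 SE, adjusted p 0.00639, limma), and the adjusted p was 0.155 with a pseudocount of 0.1 in place of 1. JAG1 went from 59.2 ± 1.98 to 58.0 ± 0.218 TPM (SD, n = 3), an overlap of groups with a log2 difference of -0.03 and an interval from -0.14 to 0.08. Its sign turned with median ratio scaling and quantile normalization. The ratio of JAG1 to JAG2 was 1.18 ± 0.0497 in CTRL and 1.51 ± 0.0354 in KDSR KO.

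In HUH7 almost all Jagged transcript was JAG1. JAG1 was 150, 167 and 176 TPM in CTRL against 170, 178 and 168 TPM in KDSR KO, overlapping groups with an adjusted p of 0.562. JAG2 was 0.218 to 0.408 TPM over the 6 libraries, which is 7 to 13 reads each, and was not tested. Among CTRL cells JAG1 was higher in HUH7 than in DLD1, by 1.45 on the log2 scale, and higher in DLD1 than in NCIH838, by 2.52 on that scale. That order, with HUH7 first, differs from that of HES1, where DLD1 came first. JAG2 had the order DLD1, NCIH838, HUH7, with means of 50.1, 17.2 and 0.309 TPM in CTRL.

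Among the Delta-type ligands the highest level was that of DLL3 in NCIH838. DLL3, a ligand that does not activate receptors on neighbouring cells, was 8.42 ± 0.959 TPM in NCIH838 CTRL against 8.77 ± 1.55 TPM in KDSR KO (SD, n = 3; adjusted p 0.833), close to the 9.47 TPM of JAG1 in the same CTRL cells. In HUH7 DLL3 went from 1.76 to 0.970 TPM, lower in each KDSR KO library but not called (adjusted p 0.377, limma). In DLD1 DLL3 was under 1 TPM in both groups and was not tested. DLL4 stood at 3.95 TPM in DLD1 CTRL against 3.42 TPM in KDSR KO (adjusted p 0.442), and DLL1 at 1.83 and 1.73 TPM (adjusted p 0.913). In NCIH838 DLL1 and DLL4 were under 1 TPM in both groups and were not tested, though each KDSR KO library lay above each CTRL library. DLK2, a related protein that lacks the domain by which Delta and Jagged bind Notch, had 36.5 TPM in NCIH838 CTRL against 26.5 TPM in KDSR KO. It was not called (adjusted p 0.141), although its groups did not overlap. Of the 6 other ligands and receptors on the list, 3 could be tested in HUH7, 3 in DLD1 and 2 in NCIH838, and none of these was called; NOTCH4 was tested in no line and DLK1 only in HUH7.

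The receptor genes are all on the minus strand in hg38, NOTCH1 on chromosome 9 from 136494433 to 136545786, NOTCH2 on chromosome 1 from 119911553 to 120069626 and NOTCH3 on chromosome 19 from 15159038 to 15200981. NOTCH1 rose in NCIH838, the largest change among the receptors. It was 4.66, 5.26 and 4.60 TPM in CTRL against 9.21, 11.9 and 9.67 TPM in KDSR KO, so every KDSR KO library exceeded every CTRL library. The rise was 2.12-fold (log2 change 0.94 ± 0.09 SE, adjusted p 8.39e-07, limma). In HUH7 the mean was 12.1 ± 0.557 TPM in CTRL against 10.6 ± 0.833 TPM in KDSR KO (SD, n = 3; adjusted p 0.465). DLD1 libraries averaged 4.64 ± 0.335 and 3.87 ± 0.118 TPM (adjusted p 0.113). In these 2 lines each KDSR KO library lay below each CTRL library, yet neither difference was called.

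NOTCH2, the most abundant receptor in all 6 groups, rose in NCIH838 by a smaller factor. It was 127, 143 and 135 TPM in CTRL against 159, 160 and 171 TPM in KDSR KO, without overlap. The rise was 21.1% (log2 change 0.28 ± 0.06 SE, adjusted p 0.0021, limma). DLD1 libraries had 47.2, 47.0 and 49.1 TPM in CTRL against 42.9, 42.8 and 42.1 TPM in KDSR KO, lower in each library but not called (log2 difference -0.16, adjusted p 0.085). In HUH7 the groups overlapped, at 28.004 ± 2.51 and 26.9 ± 1.17 TPM (adjusted p 0.704). NOTCH2NLA, a partial copy of NOTCH2 with which reads could be shared, averaged at most 0.326 TPM in a line.

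NOTCH3 fell in NCIH838, the line in which it was abundant. It was 104, 134 and 110 TPM in CTRL against 70.4, 86.6 and 81.4 TPM in KDSR KO, and the groups did not overlap. The decrease was 31.3% (log2 change -0.53 ± 0.13 SE, adjusted p 0.00439, limma). In DLD1 NOTCH3 went from 4.82 ± 0.298 to 3.57 ± 0.141 TPM (SD, n = 3), again with no overlap but with an adjusted p of 0.0819. In HUH7 it was 3.24 ± 0.607 and 3.08 ± 0.698 TPM (adjusted p 0.848). NOTCH4 was under 1 TPM on average in every group.

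Summed receptor levels overlapped between the groups in NCIH838, while the make-up of the sum did not. The receptors summed to 256 ± 24.0 TPM in CTRL against 253 ± 12.7 TPM in KDSR KO (SD, n = 3). NOTCH2 made up 52.8% ± 1.86 of the sum in CTRL and 64.5% ± 2.46 in KDSR KO, NOTCH3 45.1% ± 1.94 and 31.3% ± 2.02, and NOTCH1 1.89% ± 0.0723 and 4.05% ± 0.496. For none of the 3 shares did the libraries of the groups overlap. In DLD1 the receptors summed to 57.4 ± 1.78 TPM in CTRL against 50.4 ± 0.381 TPM in KDSR KO, with NOTCH2 at 83.1% and 84.6%. In HUH7 the sums were 43.5 ± 2.01 and 40.8 ± 2.57 TPM. These sums and shares were formed after the values of the genes were known and were not tested.

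**Figure D3:**
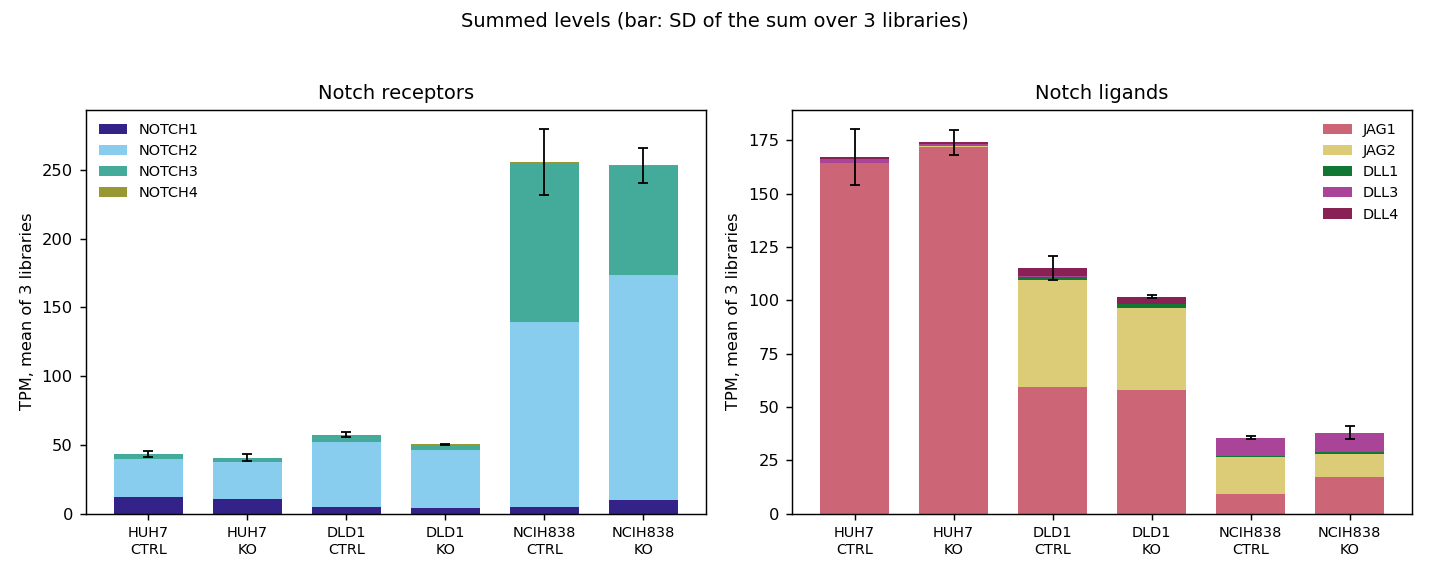
Mean TPM of the Notch receptors (left) and ligands (right) stacked by gene for each line and condition, from 0; black bars are the SD of the sum over 3 libraries. In NCIH838 the receptor sum is 256 TPM in CTRL against 253 TPM in KDSR KO, with a larger NOTCH2 segment and a smaller NOTCH3 segment in KDSR KO.

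RBPJ, through which all Notch receptors act on DNA, lies on chromosome 4 from 26163455 to 26435131 (hg38, plus strand). It was not called in any line. Its means in CTRL and KDSR KO were 58.7 ± 7.76 and 63.8 ± 1.07 TPM in HUH7, 42.5 ± 1.82 and 43.9 ± 3.98 TPM in DLD1, and 36.01 ± 0.817 and 38.4 ± 4.06 TPM in NCIH838 (SD, n = 3). The groups overlapped in each line, with adjusted p-values of 0.553, 0.788 and 0.491 in that order. The intervals of the log2 difference reached from -0.07 to 0.32, from -0.15 to 0.24 and from -0.11 to 0.28. HUH7 CTRL replicate 1, the library with the larger mitochondrial share, had the lowest RBPJ of its line, 49.9 TPM, and the lowest JAG1, 150 TPM; its part in these values was not tested.

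None of the other 3 target genes was called in NCIH838. HES4 was 55.7, 84.8 and 63.8 TPM in CTRL against 52.7, 69.4 and 53.8 TPM in KDSR KO, overlapping groups with a wide spread. The log2 difference was -0.20, with an interval from -0.48 to 0.08 and an adjusted p of 0.235 (limma). NRARP was 27.4, 31.6 and 29.1 TPM in CTRL against 25.5, 37.3 and 33.7 TPM in KDSR KO, with a log2 difference of 0.11, an interval from -0.18 to 0.40 and an adjusted p of 0.538. HEY1, on chromosome 8 from 79764010 to 79767863 (hg38, minus strand), averaged 4.29 ± 0.407 TPM in CTRL against 4.28 ± 0.9746 TPM in KDSR KO (SD, n = 3; adjusted p 0.952), with an interval of the log2 difference from -0.34 to 0.31. The ratio of HES1 to NRARP, given with no test because HES1 was chosen for its rise here, was 0.464 ± 0.0574 in CTRL and 1.16 ± 0.221 in KDSR KO (SD, n = 3).

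In DLD1 NRARP fell. It was 76.4, 93.8 and 92.9 TPM in CTRL against 64.1, 64.9 and 56.7 TPM in KDSR KO, groups that did not overlap. The decrease was 29.3% (log2 change -0.49 ± 0.14 SE, adjusted p 0.0231, limma). The call was lost with median ratio scaling (adjusted p 0.057) and quantile normalization (0.0613), and without DLD1 CTRL replicate 2 (0.0785), CTRL replicate 3 (0.0856) or KDSR KO replicate 3 (0.088). HES4 in DLD1 was 80.01, 83.6 and 96.04 TPM in CTRL against 70.9, 74.6 and 67.1 TPM in KDSR KO, below CTRL in each library but not called (log2 difference -0.28, adjusted p 0.153). HEY1 had 1 to 4 reads per DLD1 library and was not tested. In the same line the summed colon epithelial markers were 1018 to 1121 TPM in CTRL against 784 to 820 TPM in KDSR KO. Of 8 tested, 5 were called lower and 0 higher, beside 12.1% and 5.16% of all genes. KRT20 (44.2 to 50.1 TPM, not called) and GPA33 (0.569 to 1.23 TPM, not tested) were higher in each KDSR KO library. The part of these markers in the lower NRARP, JAG2 and HES1 was not tested.

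In HUH7 NRARP was 11.1, 9.56 and 7.49 TPM in CTRL against 7.0003, 7.33 and 7.69 TPM in KDSR KO, an overlap of groups (log2 difference -0.30, adjusted p 0.445). The highest value was that of CTRL replicate 1. HES4 was 41.1 ± 2.82 and 37.8 ± 1.84 TPM (SD, n = 3; adjusted p 0.680), and HEY1 was 1.55 ± 0.0979 and 1.49 ± 0.499 TPM (adjusted p 0.875). No target gene was called in this line.

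The test of the difference between lines asked whether the effect of KDSR KO was itself unlike in 2 lines. RNA was taken 10 days after infection in NCIH838 and 8 days after it in the others. In comparisons with NCIH838, line and day therefore cannot be told apart. Of 12558 genes limma called 18.0% for NCIH838 against DLD1, 33.7% for NCIH838 against HUH7 and 2.79% for DLD1 against HUH7. NOTCH1 changed more in NCIH838 than in DLD1, by 1.15 on the log2 scale (adjusted p 1.86e-05), and than in HUH7, by 1.12 (adjusted p 1.42e-05). JAG1 did so by 0.84 (adjusted p 2.73e-06) and 0.75 (adjusted p 4.00e-06), and NOTCH2 by 0.43 (adjusted p 0.00331) and 0.33 (adjusted p 0.0098). These 3 genes were higher in KDSR KO in 3 of 3 NCIH838 libraries.

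NOTCH3 was not shown to differ between lines in its change. The difference between NCIH838 and DLD1 was -0.18, with an interval from -0.58 to 0.21 (adjusted p 0.530, limma), and that between NCIH838 and HUH7 was -0.47 (adjusted p 0.0623), which 4 of 26 alternatives called (adjusted p 0.0127 to 0.153 over them). For NRARP the difference between NCIH838 and DLD1 was 0.60 (adjusted p 0.0427), but the call was lost in 19 of 27 alternatives, with adjusted p-values from 0.00817 to 0.107 over them. Of the 7 members tested in all lines, 0 were called between DLD1 and HUH7. HES1 itself had differences of 1.69 between NCIH838 and DLD1 and 1.43 between NCIH838 and HUH7, given with no test. The comparisons share libraries, so they are not independent of each other.

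Between CTRL lines most genes differed, and the Notch genes did as well. For NCIH838, line and day of RNA cannot be told apart here either. For DLD1 against HUH7 limma called 70.6% of 19869 genes, for NCIH838 against HUH7 73.0%, and for NCIH838 against DLD1 73.0%. Each of the 9 members other than HES1 was called in every comparison, except NOTCH1 between NCIH838 and DLD1 (log2 difference 0.05, adjusted p 0.636). The choice of HES1 used CTRL libraries of DLD1 and NCIH838, so its calls here are not read as tests. HES1 was higher in DLD1 than in HUH7 by 0.74 ± 0.05 (SE, log2). In NCIH838 it was lower than in HUH7, with a difference of -3.00 ± 0.05 (SE, log2).

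NOTCH3 and NOTCH2 set NCIH838 apart from the other lines in CTRL. NOTCH3 was higher there than in DLD1 by 4.32 on the log2 scale, and NOTCH2 by 1.48. The target genes did not share an order over the lines. HES4 ran DLD1, NCIH838, HUH7, at 86.5, 68.1 and 41.1 TPM, and NRARP had the same order, at 87.7, 29.3 and 9.39 TPM. HEY1 was highest in NCIH838, at 4.29 TPM, and lowest in DLD1, at 0.157 TPM. The calls between NCIH838 and DLD1 for HES4 (adjusted p 0.0215) and RBPJ (adjusted p 0.0328) were lost in 7 and 8 of 27 alternatives, with adjusted p-values up to 0.130 and 0.164, so these neighbours in the order are not firmly apart.

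The rest of the pathway was read from lists of 65 other genes. In HUH7 0 of the 55 tested were called. In DLD1 4 of 52 were called higher and 13 lower, beside 5.16% and 12.1% of all genes tested. In NCIH838 11 of 54 were higher and 17 lower, near the 15.7% and 26.8% of all genes. Nothing is called particular to a list from its counts. The median log2 change of the list was -0.04 in HUH7, -0.15 in DLD1 and 0.03 in NCIH838, beside all-gene medians of 0.02, -0.07 and -0.09.

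Of 9 genes for cutting the receptor, 4 fell and 1 rose in NCIH838, beside 26.8% of all genes lower and 15.7% higher. ADAM10, the protease that makes the first cut after ligand binding, was 53.1, 55.1 and 55.8 TPM in CTRL against 41.6, 32.5 and 40.1 TPM in KDSR KO (adjusted p 0.000881, limma). The groups did not overlap. The gamma-secretase subunits PSEN2 (21.5 to 15.5 TPM), APH1B (28.8 to 20.7 TPM) and APH1A (144 to 128 TPM) fell as well, while NCSTN, another subunit, rose from 177 to 199 TPM. PSENEN was not called. In DLD1 the only call in this list was ADAM17, a related protease, which rose from 17.2 to 23.2 TPM (adjusted p 0.00136).

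In the list for traffic and turnover, DTX4 had the largest change. DTX4, a ubiquitin ligase of the Deltex family, was 12.8, 14.5 and 13.4 TPM in NCIH838 CTRL against 4.58, 4.55 and 3.77 TPM in KDSR KO (log2 change -1.46, adjusted p 1.33e-09, limma). MIB1, the ubiquitin ligase that acts on ligands in the sending cell, fell there from 37.1 ± 1.07 to 22.3 ± 4.07 TPM (SD, n = 3; adjusted p 0.000886). AAK1, a kinase of endocytosis, rose from 8.98 to 13.7 TPM. In DLD1 DTX4 fell from 33.99 to 26.6 TPM (adjusted p 0.00551) and NEURL1B, another ligase for ligands, from 10.9 to 8.31 TPM (adjusted p 0.0104), and AAK1 rose from 18.3 to 23.2 TPM (adjusted p 0.00563). Of the tested genes 2 rose and 2 fell of 11 in NCIH838 (all genes 15.7% and 26.8%), and 1 rose and 2 fell of 10 in DLD1 (all genes 5.16% and 12.1%), shares near the background.

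Among genes that put sugars on the receptor, POFUT1, the O-fucosyltransferase, fell in both lines, from 139 to 116 TPM in NCIH838 and from 44.7 to 39.9 TPM in DLD1. LFNG, which lengthens that fucose, fell in DLD1 from 8.55 to 6.17 TPM (adjusted p 0.0212, limma). In all 1 of 4 tested fell in NCIH838 and 2 of 5 in DLD1, beside 26.8% and 12.1% of all genes.

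Among corepressors 5 of 12 were called lower and 2 higher in NCIH838 (all genes 26.8% and 15.7%), and 4 of 13 lower and 1 higher in DLD1 (all genes 12.1% and 5.16%). TLE2, a Groucho-type corepressor that HES proteins recruit, was 18.0, 19.8 and 19.95 TPM in NCIH838 CTRL against 7.95, 11.2 and 9.14 TPM in KDSR KO (log2 change -0.97, adjusted p 4.00e-05, limma). AES, a short member of the same family, fell from 154 to 105 TPM in NCIH838 and from 133 to 106 TPM in DLD1, and TLE4 from 5.82 to 4.35 TPM and from 32.5 to 26.0 TPM. CIR1, a corepressor that binds RBPJ, rose in DLD1 from 46.2 to 56.3 TPM (adjusted p 0.012, limma). It rose in NCIH838 too, from 60.3 to 76.5 TPM (adjusted p 0.00103, limma). Among coactivators 3 rose and 1 fell of 7 in NCIH838 (all genes 15.7% and 26.8%), with MAML1 going from 23.4 to 27.6 TPM and MAML3 from 14.8 to 10.8 TPM. None of 6 was called in DLD1.

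**Figure D4:**
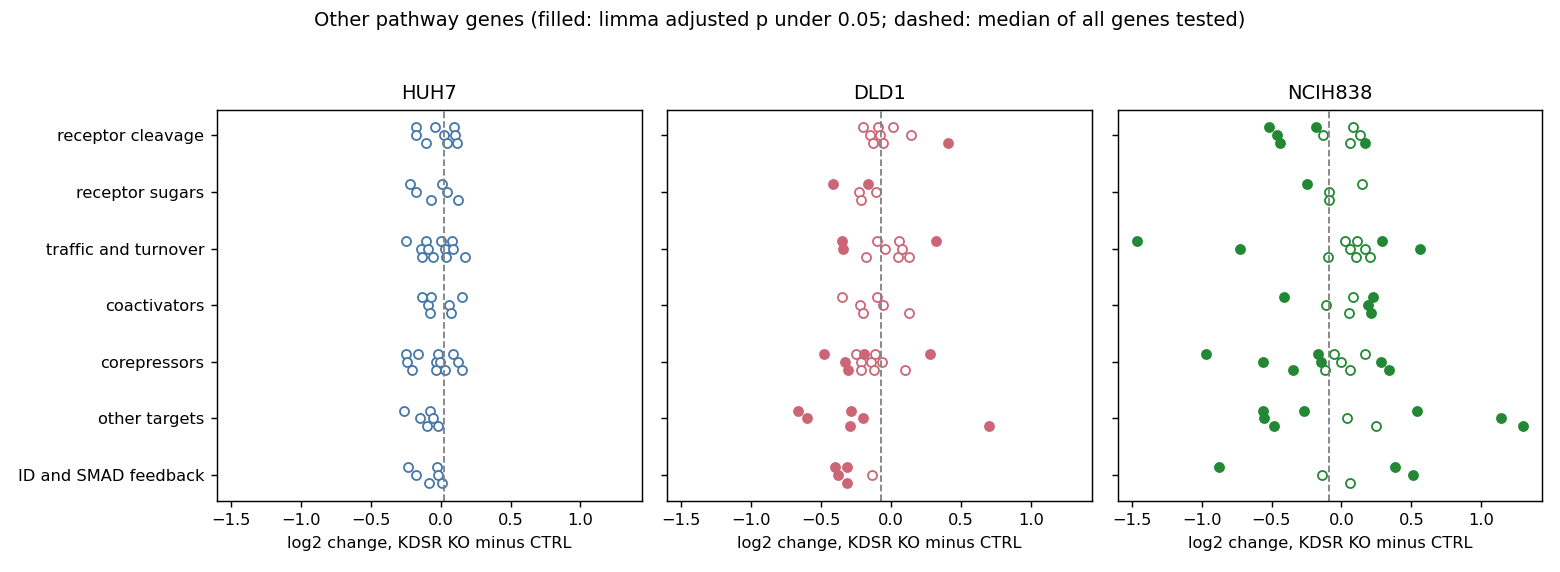
Log2 change of TPM + 1, KDSR KO minus CTRL (horizontal axis), for other pathway genes grouped by role (rows) in each line; filled points have a limma adjusted p under 0.05 and the dashed line is the median of all genes tested. DTX4 is the leftmost point in NCIH838, at -1.46, and CDKN1A the rightmost, at 1.30.

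The list of other targets of the pathway also held HES6, which is not read as a target here. In DLD1 6 genes of the list were tested, of which 5, HES6 among them, fell and 1 rose (all genes 12.1% and 5.16%). In NCIH838 9 were tested, of which 4, again with HES6, fell and 3 rose (all genes 26.8% and 15.7%). MYC, a growth regulator, was 36.4, 35.7 and 35.8 TPM in NCIH838 CTRL against 76.7, 81.3 and 83.9 TPM in KDSR KO (adjusted p 3.23e-09, limma). It was 316, 343 and 386 TPM in DLD1 CTRL against 288, 284 and 280 TPM in KDSR KO (adjusted p 0.00596). MYC had the directions of HES1 in both lines, and SOX9, a transcription factor of progenitors, did too, going from 7.11 to 10.8 TPM in NCIH838 and from 374 to 304 TPM in DLD1. CDKN1A, which encodes the cell cycle inhibitor p21, rose in both, from 59.0 to 147 TPM in NCIH838 and from 18.1 to 29.96 TPM in DLD1.

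HES6, whose protein opposes HES1, fell from 3.95 to 2.42 TPM in NCIH838 (adjusted p 0.0119, limma) and from 21.3 to 13.1 TPM in DLD1 (adjusted p 0.0115). HES7, the segmentation clock member of the family, fell from 53.6 to 38.2 TPM and from 16.4 to 10.5 TPM in the same lines, though its groups overlapped in NCIH838. CCND1 fell in both and BCL2 fell in NCIH838. HES5 and HEY2 averaged under 1 TPM in every group and were not tested. HES2 was tested only in NCIH838 and HEYL only in HUH7 and NCIH838, and neither was called. The highest of these was HEYL in NCIH838, at 7.39 TPM in CTRL against 8.94 TPM in KDSR KO (adjusted p 0.190).

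Of 5 listed genes that HES1 is known to repress, only CDKN1B, which encodes the cell cycle inhibitor p27, could be tested in NCIH838. It fell there from 74.6 to 62.0 TPM (adjusted p 0.00436, limma), a direction called for 26.8% of all genes. In DLD1 it went from 138 to 140 TPM (adjusted p 0.809, limma). DLL1, also on that list, was 0.341 TPM in NCIH838 CTRL and 0.776 TPM in KDSR KO, too low to test. ID1, ID2 and ID3, targets of BMP signals that cross with Notch, fell in DLD1. ID1 went from 717 to 576 TPM, ID2 from 466 to 358 TPM and ID3 from 262 to 211 TPM. With SMAD6, 4 of 5 tested genes of that list were lower in DLD1, beside 12.1% of all genes, and SMAD7 was not called. In NCIH838 ID1 rose from 226 to 295 TPM and SMAD7 from 9.60 to 14.1 TPM, while SMAD6 fell from 4.48 to 2.00 TPM. That is 2 higher and 1 lower of 5 tested, beside 15.7% and 26.8% of all genes. ID2 and ID3 were not called there (adjusted p 0.516 and 0.179, limma).

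The genes most like HES1 were sought by the correlation, over 18 libraries, of log2(TPM + 1) less the mean of the line, among 8481 genes. MYC came first with a Pearson r of 0.984, followed by MAPK13 at 0.981, IER3 at 0.979, DNMBP at 0.973 and PPIF at 0.973. MAPK13 encodes a stress-activated kinase, IER3 an early response protein, DNMBP an exchange factor for CDC42 and PPIF a cyclophilin of mitochondria. IER3 went from 96.3 to 375 TPM in NCIH838 and from 313 to 287 TPM in DLD1, where its groups overlapped. MAPK13 went from 5.89 to 13.9 TPM and from 63.2 to 52.0 TPM in the same lines, without overlap in DLD1. DNMBP went from 40.3 to 39.5 TPM in DLD1 and PPIF from 306 to 286 TPM, both with overlapping groups. Only genes with a mean of 5 TPM or more in every line entered, so NOTCH1, NOTCH3, JAG2 and HEY1 were not compared. Of the pathway members compared, JAG1 stood at rank 22 with an r of 0.950 and NOTCH2 at rank 507 with 0.765. NRARP had 0.321, RBPJ 0.151 and HES4 -0.203. The libraries share lines and groups, the 6 of NCIH838 are spread furthest, and the correlations are descriptions with no test.

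By level alone, without taking out the line, genes among the closest of 10826 were ANTXR2 at an r of 0.993, SCAF4 at 0.988, DUSP6 at 0.987 and PHC2 at 0.986. DUSP6, a phosphatase that acts on ERK, was 87.7 TPM in HUH7 CTRL, 108 TPM in DLD1 CTRL, 4.34 TPM in NCIH838 CTRL and 15.1 TPM in NCIH838 KDSR KO. NOTCH3 was among the genes least like HES1 by level, at rank 10506 with an r of -0.930, and JAG1 had 0.805.

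**Figure D5:**
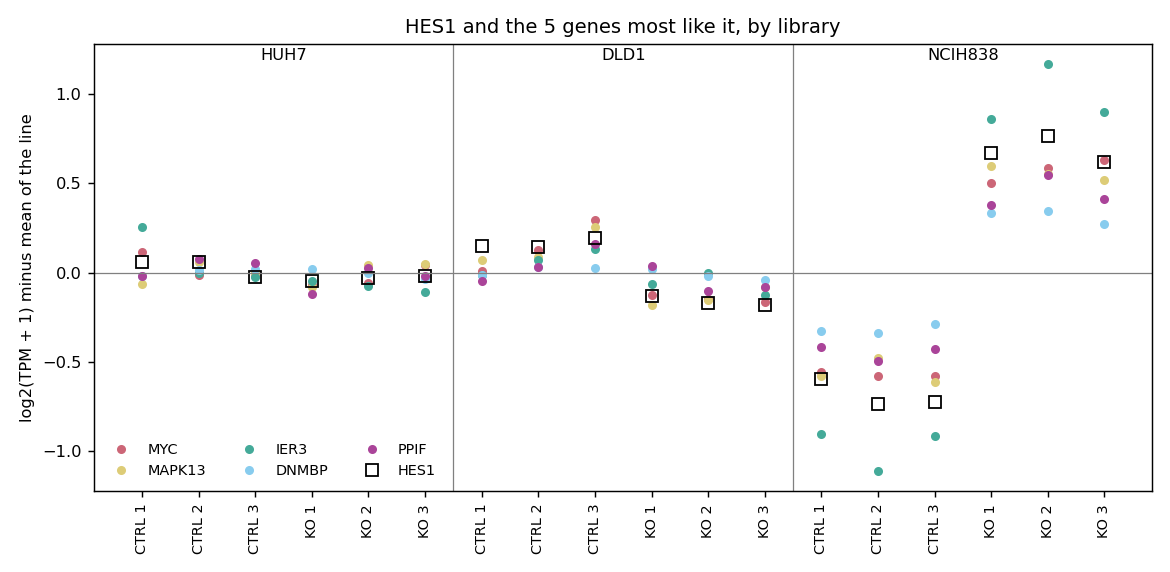
Deviation of log2(TPM + 1) from the mean of the line (vertical axis) in each of 18 libraries (horizontal axis) for HES1 (open squares) and the 5 genes most like it (coloured points). HES1 lies near 0 in HUH7, above 0 in DLD1 CTRL and below it in DLD1 KDSR KO, with the reverse and larger deviations in NCIH838.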

How the data were processed

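The TPM values were deposited by the authors, for 27166 genes and 18 libraries. Per the submitters' processing notes, featureCounts 2.0.0 and hg38 were used; the aligner and the handling of strand and of reads shared by several genes are not given in the sources used here. TPM times gene length gave whole reads for 100% of values (within 0.01), which gave the depths. The 10 members, the lists and the tests were chosen with earlier results of these data known.

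Levels were fitted as log2(TPM + 1) with limma 3.58.1 in R 4.3.3 (1 mean per group, eBayes with trend and robust options, 12 residual degrees of freedom) over the 19869 genes that averaged 1 TPM or more in a line. Adding 1 draws the changes of low genes toward 0. P-values were adjusted by Benjamini-Hochberg within each line over the genes that averaged 1 TPM or more there (16104 in HUH7, 15478 in DLD1 and 16347 in NCIH838), and a gene was called under 0.05. Groups and replicates came from the sample titles, and p-values measure the spread between these cultures. Named genes were the members, KDSR, up to 3 called genes per list with the largest change and an average of 5 TPM or more, all other ligands, receptors and targets, and the 5 genes most like HES1 by each measure (some genes under these rules are not reported here); APH1A, NCSTN, PSENEN and SMAD6 were added after their values were seen. Gene positions are from GENCODE 29, whose identifiers and starts matched all 27166 genes. Alternatives refitted the data with voom on recovered reads, each line alone, plain eBayes, a replicate block, median ratio or quantile scaling, a pseudocount of 0.1, no filter or one at 5 TPM, and without mitochondrial and rRNA genes or each library in turn. The procedure was tested on simulated data. Motifs were searched in RefSeq promoters (GRCh38.p14) on both strands.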

Additional observations from a re-analysis of the deposited data

Results flagged for a closer look

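The effect of KDSR KO differed between lines for 4 genes by the test of the difference itself (limma, adjusted over 12558 genes). NCIH838 RNA was taken 10 days after infection and that of the other lines 8 days after it, so line and day cannot be told apart. For NOTCH1 the log2 effect in NCIH838 exceeded that in DLD1 by 1.15 and that in HUH7 by 1.12. For JAG1 the differences were 0.84 and 0.75, and for NOTCH2 they were 0.43 and 0.33, in the same order. All 6 kept their call in every alternative run. For NRARP the difference between NCIH838 and DLD1 was 0.60, with an adjusted p of 0.0427 that 19 of 27 alternatives lost. HES1 was higher in all NCIH838 KDSR KO libraries and lower in all of DLD1, a difference of 1.69 that was not tested because the gene was chosen for it.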

How the results depend on the processing

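Of the values for single genes, 1991 kept their direction and side of the threshold, 40 lost their call, 13 gained one, 16 turned sign and 10 moved by more than the replicate SD. Leaving out a library gave HES1 changes of -0.33 to -0.30 in DLD1 and 1.33 to 1.41 in NCIH838. In DLD1 it was -0.28 with median ratio scaling and -0.26 with quantile normalization, and in NCIH838 1.46 with quantile normalization and 1.45 with voom on recovered reads. The HUH7 count of 0 genes became 9 without a filter, 2 with median ratio scaling, 2 with quantile normalization, 7 with plain eBayes and 0 to 7 without single libraries (6 and 7 without HUH7 CTRL replicates 2 and 3, and 3 and 2 without KDSR KO replicates 1 and 2). With the replicate number as a block it was 1, and the count that differed between DLD1 and HUH7 went from 350 to 211. Same-numbered CTRL and KDSR KO libraries deviated together with correlations of -0.040 to 0.101, and not every library correlated best with its own number, so the numbers were not taken as pairs. Leaving out a library gave 194 to 447 for that count and 1605 to 3286 genes called in DLD1 against 2674, with 1605 without DLD1 CTRL replicate 3 and 1753 without DLD1 KDSR KO replicate 3. The count between DLD1 and HUH7 was 194 without HUH7 KDSR KO replicate 2 and 210 without DLD1 KDSR KO replicate 1. In DLD1, calls were gained for NOTCH2 and NOTCH3 under 2 alternatives each and for HES4 under 1. Signs turned only for values that were not called. With median ratio scaling and quantile normalization HEY1 in NCIH838 became 0.0321 and 0.0667, JAG1 in DLD1 0.0056 and 0.0261, and KDSR in NCIH838 0.000138 and 0.0379. The NOTCH1 difference between NCIH838 and DLD1 CTRL became -0.15 with quantile normalization. Without single libraries the ranges were -0.16 to 0.12 for HEY1 in HUH7, -0.16 to 0.10 for HEY1 in NCIH838, -0.15 to 0.0906 for NOTCH3 in HUH7, -0.0254 to 0.10 for RBPJ in DLD1, -0.13 to 0.0086 for KDSR in NCIH838 and -0.0011 to 0.10 for NOTCH1 between those CTRL lines. Why these values moved was not tested. Genes at a few reads, such as HEY1 in DLD1 and JAG2 in HUH7, are beyond what this depth resolves.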
